A study of Mus musculus with 12 samples.

Results

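The 10 genes described here carry the acid-base transport of intercalated cells, the minority cells of the kidney's connecting tubule and collecting duct that secrete acid or bicarbonate. They were taken from the platform's gene symbols as Atp6v1b1, Atp6v0a4, Atp6v1g3, Slc4a1, Slc4a9, Slc26a4, Foxi1, Car2, Rhcg and Rhbg, each read by 1 probe set with a single symbol, and all 10 were found among 19938 genes. Whole-kidney RNA of mice aged 3 weeks was measured on 12 Affymetrix arrays in 4 groups of 3. PpargΔ/Δ mice, deleted for the gene of PPARγ, a nuclear receptor required to make fat cells, stood against control mice, both on a mixed C57BL6/SV129 background. AZIP mice stood against FVB control mice, both on the FVB background; the AZIP transgene is known as a dominant-negative protein, driven by the Fabp4 promoter of fat cells, that blocks the development of fat while leaving Pparg in place. RNA from 3 mice was pooled for every array, 36 mice in total, so the spread between arrays is that of pools and not of single mice. The sources used here give neither the way Pparg was deleted nor the controls' genotype nor the sex of the mice.

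Type A intercalated cells secrete acid: a V-type proton pump in the luminal membrane pushes protons into the urine, carbonic anhydrase II supplies them, and the chloride-bicarbonate exchanger AE1, encoded by Slc4a1, returns bicarbonate to the blood. Type B cells do the reverse, with the exchanger pendrin, encoded by Slc26a4, passing bicarbonate into the urine, and with AE4, encoded by Slc4a9, in the basolateral membrane. The forkhead factor Foxi1 is needed for both types to form, and the ammonia channels Rhcg and Rhbg complete the excretion of acid.

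Values are the authors' RMA levels on the log2 scale, on which 1 unit is a doubling. Differences are given as log2 ± SE from limma with n = 3 arrays per group, and a gene was called where the adjusted p, corrected by Benjamini and Hochberg over 19938 genes, was under 0.05. The members were well expressed, with means between percentile 75.1 (Foxi1) and percentile 99.1 (Car2) of all genes. Median levels ran from 7.17 to 7.21 over the arrays, and the mean correlation within a group was at least 0.997. Defining markers of the labelled tissue were present, with Lrp2 of the proximal tubule at 12.71 or more and Umod of the thick limb at 13.02 or more on every array. The probe set of Pparg averaged 8.07 in PpargΔ/Δ and 7.96 in control kidneys (limma adjusted p = 0.339), so the array gives no check of genotype and the groups are named from their labels alone. In whole-kidney RNA fewer intercalated cells and less RNA per cell cannot be told apart.

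The first comparison asked how the kidney differs when Pparg is missing. Of the 10 members 0 passed the limma threshold in PpargΔ/Δ against control kidneys, where 5.29% of all genes did (2.67% higher and 2.62% lower), and 3 had an unadjusted p under 0.05, as did 20.4% of all genes. The median difference of the members was -0.045, against -0.009 for all genes. The 3 were the pump subunit Atp6v1g3 and pendrin, both with positive differences, and Foxi1, with a negative one. The 95% intervals of all 10 lay between -0.37 (Foxi1) and 0.39 (Slc26a4), or 0.77-fold to 1.31-fold.

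Atp6v1g3, the kidney form of the G subunit of the pump's stalk, read 10.66, 10.7 and 10.69 in PpargΔ/Δ kidneys, against 10.38, 10.57 and 10.43 in control kidneys. Every PpargΔ/Δ array lay above every control array. The difference was 0.22 ± 0.06 (1.17-fold, limma adjusted p = 0.0614). It passed the threshold when genes under percentile 25 or percentile 50 of mean expression were left out of the test, with a variance trend and without control replicate 2 (limma adjusted p = 0.0416, 0.0283, 0.0309 and 0.0483).

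Pendrin, Slc26a4, read 10.47, 10.39 and 10.36 in PpargΔ/Δ kidneys, against 10.19, 10.13 and 10.25 in control kidneys. Its groups did not overlap either, with a difference of 0.22 ± 0.08 (limma adjusted p = 0.13). Slc4a1, the exchanger of type A cells, read 9.76, 9.72 and 9.8 in PpargΔ/Δ kidneys, against 9.46, 9.7 and 9.57 in control kidneys, a difference of 0.18 ± 0.09 (limma adjusted p = 0.28). Its lowest PpargΔ/Δ array was just above its highest control array. Red blood cells also make Slc4a1. Among the 11 measured red blood cell and erythroid markers 1, the membrane protein Epb42, was called higher in PpargΔ/Δ kidneys (0.34 ± 0.09, limma adjusted p = 0.042) and 0 lower, against 2.67% and 2.62% of all genes. The summed linear level of the 11 was 1048 to 1184 in PpargΔ/Δ and 1021 to 1087 in control kidneys, the adult globins were not among them, and their part in the reading of Slc4a1 was not tested. Except for Alas2 and Sptb, these markers averaged under the lowest array median of 7.17 in all 4 groups. Epb42 averaged 6.26 in PpargΔ/Δ and 5.92 in control kidneys, and Alas2, the highest of them, 8.74 and 8.60. The Epb42 call was lost without any 1 of the PpargΔ/Δ arrays or without control replicate 1 or 2 (limma adjusted p up to 0.133).

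Foxi1 had a negative estimate. It read 9.33, 9.24 and 9.3 in PpargΔ/Δ kidneys, against 9.55, 9.56 and 9.34 in control kidneys, a difference of -0.19 ± 0.08 (limma adjusted p = 0.222). The groups did not overlap, but control replicate 3 lay just above the highest PpargΔ/Δ array. Atp6v0a4, the kidney form of the pump's membrane a subunit, differed by -0.05 ± 0.05 (limma adjusted p = 0.584) with 3 PpargΔ/Δ arrays at 11.77 to 11.8 below 3 control arrays at 11.83 to 11.85. Non-overlap was therefore seen in 5 of 10 members, against 26.1% of all genes. The PpargΔ/Δ arrays were above in 3 members and below in 2, against 12.9% and 13.2% of all genes.

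The other 5 members overlapped between PpargΔ/Δ and control kidneys, with differences of -0.08 (Atp6v1b1) to -0.02 (Slc4a9). Among these were the ammonia channels, Rhcg at -0.05 ± 0.07 (95% interval -0.2 to 0.11) and Rhbg at -0.05 ± 0.11 (95% interval -0.28 to 0.19). The PpargΔ/Δ pools were spread widely for Rhbg, at 10.56, 10.35 and 10.11, while the control pools lay at 10.42, 10.38 and 10.36. The same order of the 3 PpargΔ/Δ pools was seen for Rhcg (11.67, 11.45 and 11.35) and for the pump's B1 subunit, Atp6v1b1 (11.32, 11.23 and 10.99). The difference in spread between groups was not tested.

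**Figure D1:**
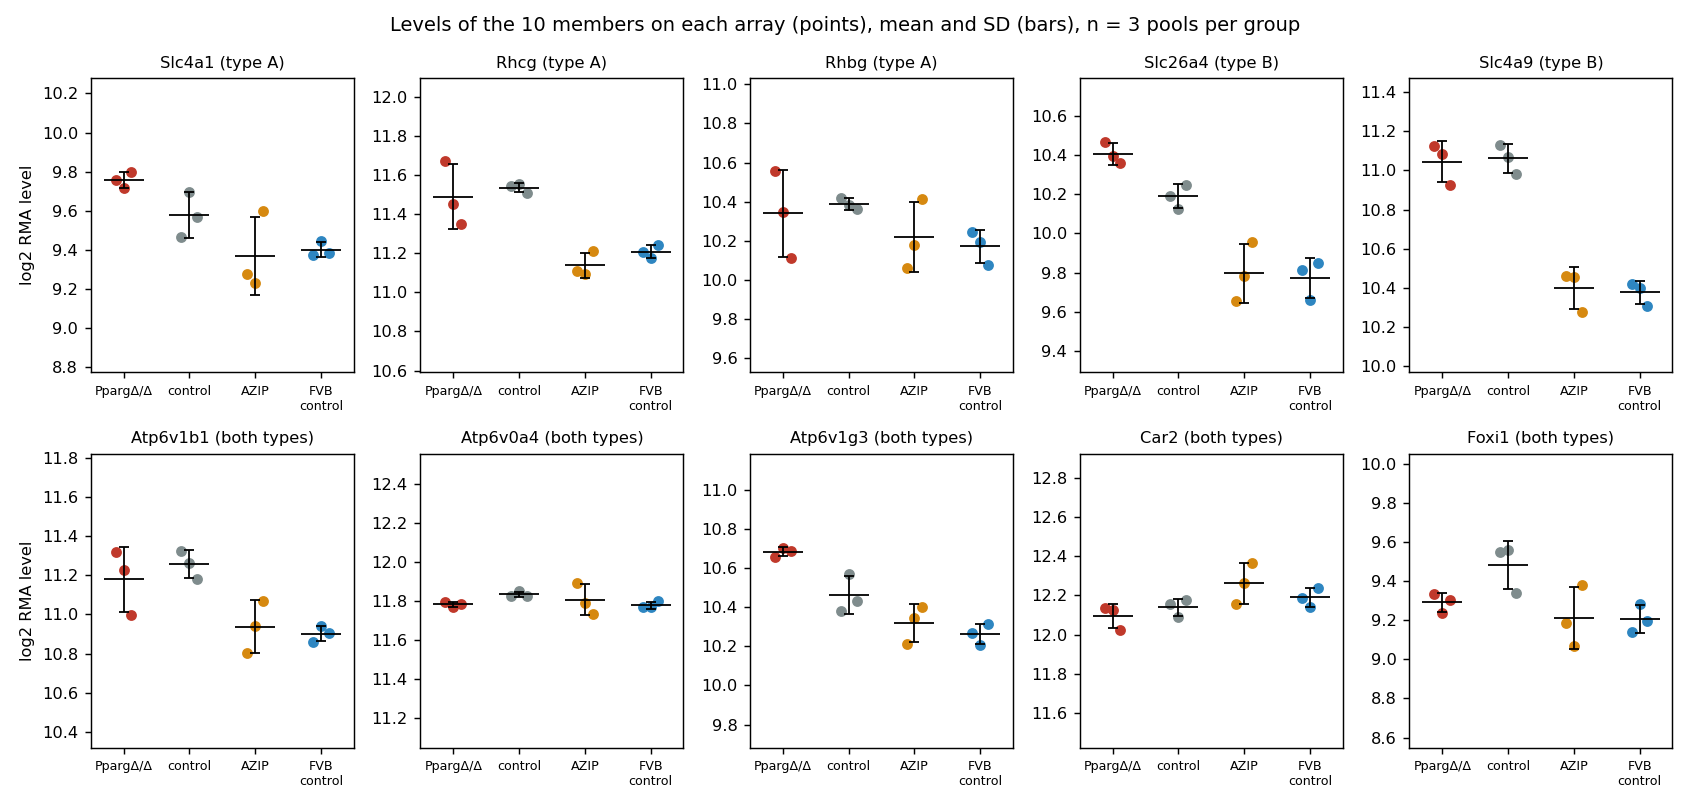
Log2 RMA level of each of the 10 members (vertical axes, each spanning 1.5 log2 units) on every array, with PpargΔ/Δ, control, AZIP and FVB control kidneys from left to right; points are arrays, and bars are the mean and SD of 3. Slc4a9 sits at 10.27 to 10.46 on the 6 FVB-background arrays and at 10.93 to 11.13 on the 6 mixed-background arrays, while mutants lie close to their own controls.

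AZIP kidneys gave the comparison for loss of fat with the Pparg gene intact. Of the 10 members 0 passed the limma threshold in AZIP against FVB control kidneys, where 2.43% of all genes did (1.3% higher and 1.13% lower), and 0 had an unadjusted p under 0.05, against 16.4% of all genes. Differences ran from -0.07 (Rhcg) to 0.07 (Car2) with a median of 0.03, and in 0 of 10 members were the groups free of overlap, against 22.5% of all genes. The 95% intervals of all 10 lay between -0.23 (Slc4a1) and 0.28 (Rhbg), or 0.85-fold to 1.22-fold.

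By role, the exchanger Slc4a1 of type A cells read 9.28, 9.23 and 9.6 in AZIP kidneys, against 9.37, 9.45 and 9.39 in FVB control kidneys, a difference of -0.03 ± 0.09 (limma adjusted p = 0.908). AZIP replicate 3 lay above all FVB control arrays and the other two AZIP arrays below them. Pendrin read 9.66, 9.78 and 9.96 in AZIP kidneys, against 9.81, 9.66 and 9.85 in FVB control kidneys, a difference of 0.02 ± 0.08 (limma adjusted p = 0.924). Foxi1 read 9.19, 9.07 and 9.38 in AZIP kidneys, against 9.14, 9.28 and 9.2 in FVB control kidneys, a difference of 0.0038 ± 0.08 (limma adjusted p = 0.991). For both, AZIP and FVB control arrays overlapped.

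The difference between the PpargΔ/Δ effect and the AZIP effect was tested for every gene, and 0 of 10 members passed by limma, with 0 at an unadjusted p under 0.05. Of all genes 0.0201% passed (0.01% in each direction), and 5.82% had an unadjusted p under 0.05. Among the members the estimates ran from -0.19 (Foxi1) to 0.21 (Slc4a1), and their 95% intervals lay between -0.45 and 0.49. These intervals are wider than those of either comparison because 4 group means enter them.

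**Figure D2:**
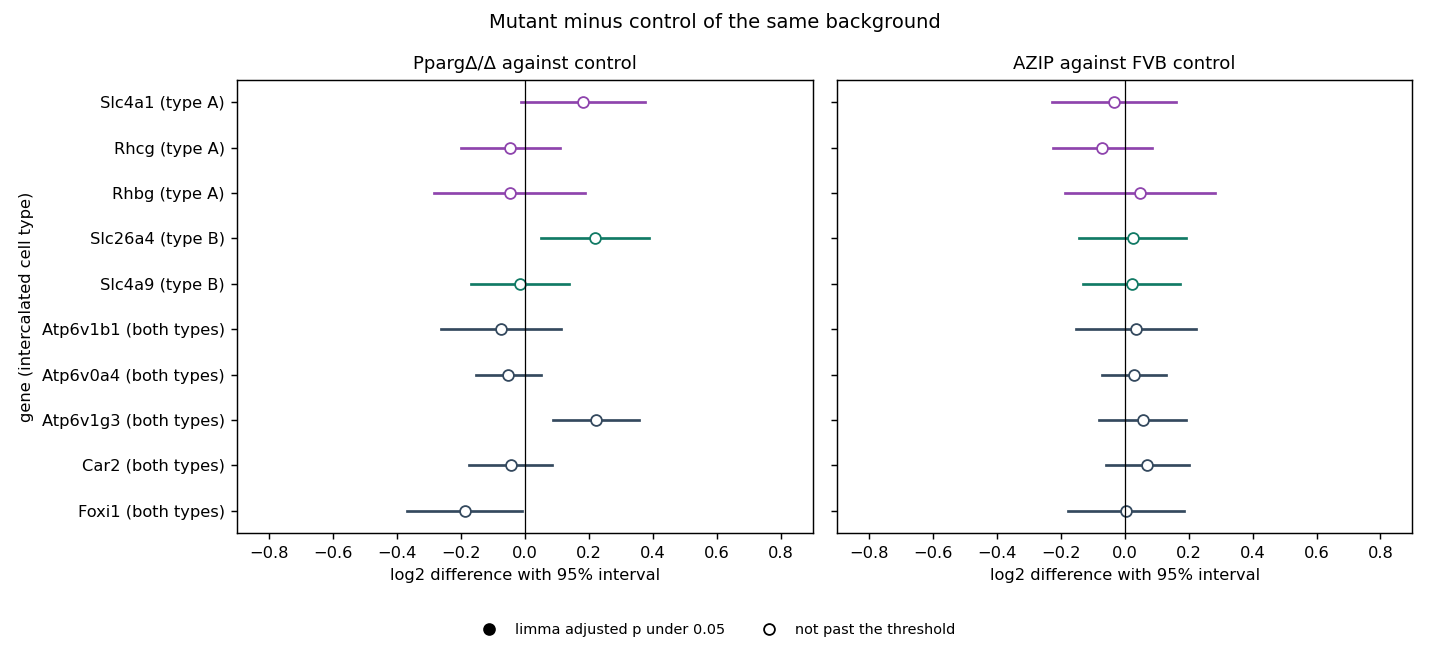
Log2 difference with its 95% interval (horizontal axes) for each of the 10 members, PpargΔ/Δ minus control on the left and AZIP minus FVB control on the right; open points did not pass a limma adjusted p under 0.05. All 20 points are open, and the largest distance from 0 is the 0.22 of Atp6v1g3 in PpargΔ/Δ kidneys.

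The next comparison set the controls of the backgrounds against each other. In FVB control against control kidneys 4 of 10 members were called lower and 0 higher, where 7.22% of all genes were called, 3.72% lower and 3.5% higher. The 4 were both type B exchangers, Slc4a9 and Slc26a4, the ammonia channel Rhcg and the pump subunit Atp6v1b1. The count was 2 without control replicate 1 or 2 or FVB control replicate 1 or 2. The members' median difference was -0.245, against 0.017 for all genes, and 6 had an unadjusted p under 0.05, against 19.7% of all genes. In 9 of 10 members all FVB control arrays lay below all control arrays, while 28.5% of all genes had no overlap, 12.7% below and 15.8% above. Strain, colony and any sequence difference under the probes cannot be told apart in these groups.

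Slc4a9 read 10.42, 10.4 and 10.31 in FVB control kidneys, against 11.13, 11.07 and 10.98 in control kidneys. The highest FVB control array lay far below the lowest control array. The difference was -0.68 ± 0.07 (0.622-fold, limma adjusted p = 0.000136), and the call stood in all 17 alternatives run, with an adjusted p of 2.02e-05 to 0.00111. Slc26a4 read 9.81, 9.66 and 9.85 in FVB control kidneys, against 10.19, 10.13 and 10.25 in control kidneys, a difference of -0.42 ± 0.08 (0.749-fold, limma adjusted p = 0.00671). Its call stood in all 17 as well, with an adjusted p of 0.00146 to 0.0343.

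Rhcg, which lets ammonia pass the luminal and basolateral membranes, read 11.21, 11.18 and 11.24 in FVB control kidneys, against 11.54, 11.55 and 11.51 in control kidneys, a difference of -0.33 ± 0.07 (limma adjusted p = 0.0163). The groups lay tightly together and well apart. Atp6v1b1, whose loss in people causes distal renal tubular acidosis with deafness, read 10.86, 10.94 and 10.9 in FVB control kidneys, against 11.33, 11.26 and 11.18 in control kidneys, a difference of -0.35 ± 0.09 (limma adjusted p = 0.0277). Rhcg lost the threshold without replicate 1 or 2 of either group (limma adjusted p up to 0.0661). Atp6v1b1 lost it without any 1 of the FVB control arrays, without control replicate 1 or 2 (limma adjusted p up to 0.102) and with all probe sets tested (limma adjusted p = 0.0534).

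Foxi1 (-0.27 ± 0.08, limma adjusted p = 0.0726) and Atp6v1g3 (-0.20 ± 0.06, limma adjusted p = 0.0831) missed the threshold with non-overlapping groups. Both passed it with genes under percentile 50 left out, with a variance trend and with array weights, and Foxi1 also without control replicate 3 (limma adjusted p as low as 0.041 and, for Atp6v1g3, 0.022). Rhbg, the basolateral ammonia channel, stood at -0.22 ± 0.11 and Slc4a1 at -0.18 ± 0.09 (limma adjusted p = 0.299 and 0.308). Atp6v0a4 was at -0.06 ± 0.05. Car2, which proximal and principal cells make too, was the 1 member with a positive estimate, 0.05 ± 0.06 (limma adjusted p = 0.714, 95% interval -0.08 to 0.18).

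The mutants of the same backgrounds gave a second set of arrays, AZIP against PpargΔ/Δ, a comparison added after the values were seen, in which background and mutation cannot be told apart. It shares no array with the control comparison but shares the variance estimate. Here 5 of 10 members were called lower, against 4.33% of all genes, and 0 higher, against 4.29%. An unadjusted p under 0.05 was reached by 7 members and 24.4% of all genes. The AZIP arrays lay below in 5 members and above in 1, Car2, against 11.1% and 15.9% of all genes, 26.9% together. Slc4a9 read 10.46, 10.46 and 10.27 in AZIP kidneys, against 11.12, 11.08 and 10.93 in PpargΔ/Δ kidneys, a difference of -0.65 ± 0.07 (limma adjusted p = 0.000205). Slc26a4 differed by -0.61 ± 0.08 (limma adjusted p = 0.000592), Atp6v1g3 by -0.36 ± 0.06 (0.00389), Rhcg by -0.35 ± 0.07 (0.0106) and Slc4a1 by -0.39 ± 0.09 (0.019), while Atp6v1b1 was at -0.24 ± 0.09 (0.107). Slc4a1 lost the threshold without PpargΔ/Δ replicate 3 or AZIP replicate 1 or 2 and with only these groups in the fit (limma adjusted p up to 0.0746), and Rhcg with only these groups in the fit (0.0743). Atp6v1b1 passed it without PpargΔ/Δ replicate 3 (limma adjusted p = 0.0312). Beside Slc4a1, the erythroid marker Epb42 was lower too (-0.38 ± 0.09, limma adjusted p = 0.018), 1 of 11 such markers, whose summed linear level was 860 to 1093 in AZIP and 1048 to 1184 in PpargΔ/Δ kidneys, and their part was not tested.

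Across both backgrounds 3 of 10 members, Slc4a9, Slc26a4 and Rhcg, had all 6 FVB-background arrays below all 6 mixed-background arrays, against 3.81% of all genes, and 0 had them above, against 3.6%, or 7.41% together. For Slc26a4 the highest FVB-background array was 9.96 and the lowest mixed-background array 10.13. For Rhcg these were 11.24 and 11.35. By mean, Slc4a9 stood at 11.05 in PpargΔ/Δ and 11.06 in control kidneys, and at 10.4 in AZIP and 10.38 in FVB control kidneys, with each mutant overlapping its control. Slc26a4 stood at 10.41 in PpargΔ/Δ and 10.19 in control kidneys, and at 9.80 in AZIP and 9.77 in FVB control kidneys, where neighbours in this order overlapped between AZIP and FVB control kidneys but not otherwise.

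The RefSeq promoters (build GRCm38.p6, the C57BL/6J sequence) of the called members Slc26a4, Atp6v1b1 and Rhcg are shown because the 3 were called lower in FVB control than in control kidneys. In AZIP against PpargΔ/Δ kidneys Slc26a4 and Rhcg were called lower and Atp6v1b1 was not. The table held 6 of the 10 members. Each sequence is the 250 bases before the annotated start, read in the gene's direction, and capitals mark the forkhead core words TGTTTA and TATTTA or their reverse complements.
Slc26a4, chr12:31559985-31560234, minus strand: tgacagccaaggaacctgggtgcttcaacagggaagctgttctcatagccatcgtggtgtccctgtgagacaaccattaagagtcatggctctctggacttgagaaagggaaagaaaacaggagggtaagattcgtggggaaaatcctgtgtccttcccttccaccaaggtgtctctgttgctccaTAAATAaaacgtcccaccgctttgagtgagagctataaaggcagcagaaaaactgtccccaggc
Atp6v1b1, chr6:83742767-83743016, plus strand: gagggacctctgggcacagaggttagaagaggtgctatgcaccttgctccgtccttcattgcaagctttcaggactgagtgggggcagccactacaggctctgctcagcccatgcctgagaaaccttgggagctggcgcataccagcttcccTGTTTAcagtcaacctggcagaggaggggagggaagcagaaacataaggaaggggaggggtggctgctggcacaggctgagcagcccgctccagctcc
Rhcg, chr7:79617658-79617907, minus strand: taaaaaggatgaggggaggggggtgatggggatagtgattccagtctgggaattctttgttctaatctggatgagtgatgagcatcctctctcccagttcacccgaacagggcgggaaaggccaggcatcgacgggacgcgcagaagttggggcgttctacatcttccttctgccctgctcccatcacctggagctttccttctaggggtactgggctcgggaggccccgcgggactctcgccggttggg

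Both strands were searched, and the words do not overlap here. Atp6v1b1 held TGTTTA 98 to 93 bases before the start and Slc26a4 held TATTTA on the opposite strand 64 to 59 bases before it. These were 2 of the 6 members with a promoter in the table, and either word occurs in 22.1% of 32851 promoters of this length. The promoters of Rhcg, Atp6v0a4, Atp6v1g3 and Foxi1 itself held neither word. A match describes the letters of this window only.

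Type A and type B genes were set side by side, with Slc4a1, Rhcg and Rhbg for type A and Slc26a4 and Slc4a9 for type B. Rhcg and Rhbg are also found in principal cells. The mean of the type A members minus the mean of the type B members differed by -0.07 in PpargΔ/Δ against control kidneys and by -0.04 in AZIP against FVB control kidneys, and arrays overlapped in both pairs. Between backgrounds the difference was larger, 0.31 in FVB control against control kidneys and 0.34 in AZIP against PpargΔ/Δ kidneys. Relative to the mean over 12 arrays it read 0.05 to 0.29 in AZIP and 0.16 to 0.24 in FVB control kidneys, and -0.23 to -0.14 in PpargΔ/Δ and -0.19 to -0.05 in control kidneys, so all 6 FVB-background arrays lay above all 6 of the mixed background. For Slc4a1 minus Slc26a4 alone the difference was 0.24 in FVB control against control kidneys, where arrays overlapped, and 0.22 in AZIP against PpargΔ/Δ kidneys, where they did not. No test was made on these scores.

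**Figure D3:**
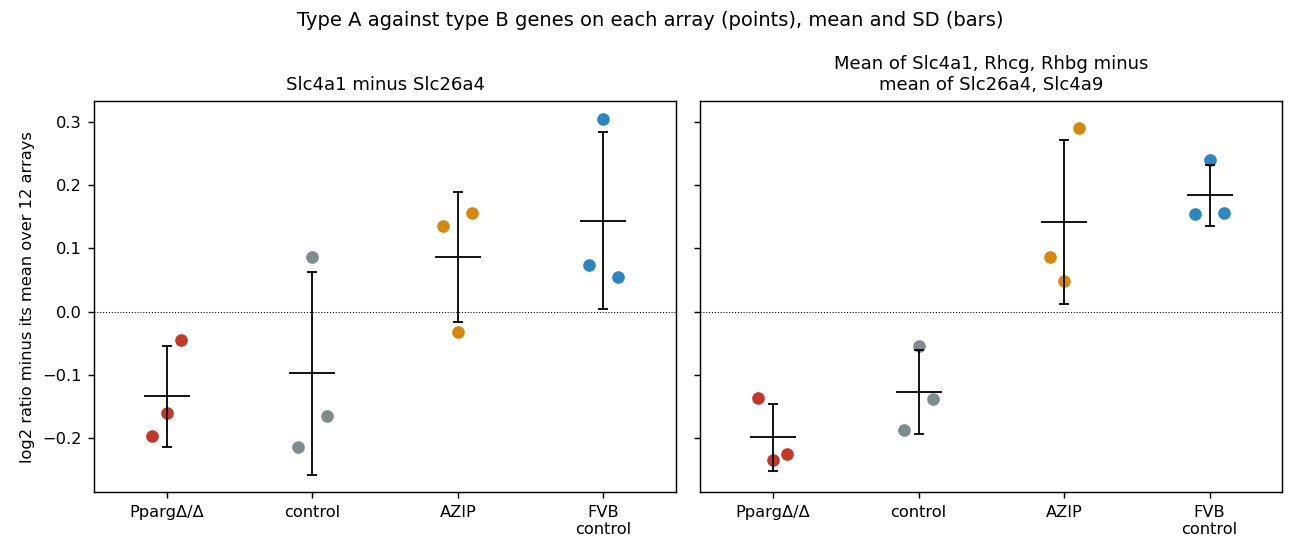
Log2 ratio of type A to type B genes on each array relative to its mean over 12 arrays (vertical axis), for Slc4a1 over Slc26a4 on the left and for the mean of the 3 type A members over the mean of the 2 type B members on the right; points are arrays, and bars are the mean and SD of 3. On the right the FVB-background arrays sit at 0.05 to 0.29 and the mixed-background arrays at -0.23 to -0.05.

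The further genes of intercalated cells were counted by type as well. Counting members and further genes, 4 of 6 type B genes were lower in FVB control than in control kidneys, with a median of -0.36, and 1 of 8 type A genes, with a median of -0.06, against 3.72% of all genes. In AZIP against PpargΔ/Δ kidneys 4 of 6 type B genes were lower, with a median of -0.45, and 3 of 8 type A genes were lower and 1 higher, with a median of -0.03, against 4.33% of all genes lower and 4.29% higher. Whether the types differ was not tested. The alkali-sensing receptor Insrr read 8.71, 8.54 and 8.63 in FVB control kidneys, against 9.42, 9.34 and 9.18 in control kidneys, a difference of -0.69 ± 0.12 (limma adjusted p = 0.00398). Oxgr1, the receptor for α-ketoglutarate that stimulates pendrin-dependent transport, was lower by a smaller step, at -0.30 ± 0.06 (limma adjusted p = 0.0132). Both were also called lower in AZIP against PpargΔ/Δ kidneys, Insrr at -0.73 ± 0.12 and Oxgr1 at -0.29 ± 0.06 (limma adjusted p = 0.00281 and 0.0139). The other two type B genes were not called in either, the homeobox factor Hmx2 at -0.19 and the sodium-driven exchanger Slc4a8 at -0.02 in the control comparison. Oxgr1 lost the threshold in the control comparison without control replicate 1 or 3 or FVB control replicate 1 or 2 (limma adjusted p up to 0.0586) and in the mutant comparison without AZIP replicate 1 (0.0507).

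Among the 5 further type A genes 0 were called in FVB control against control kidneys by limma, where 7.22% of all genes were. An unadjusted p under 0.05 was reached by 2 of the 5, against 19.7% of all genes, and the 5 did not share a direction. The water channel Aqp6 of intracellular vesicles stood at -0.17 ± 0.05 and the basolateral exchanger Slc26a7 at 0.24 ± 0.08 (limma adjusted p = 0.0627 and 0.127). In AZIP against PpargΔ/Δ kidneys both passed, Aqp6 lower by -0.28 ± 0.05 and Slc26a7 higher by 0.39 ± 0.08 (limma adjusted p = 0.00467 and 0.0154). Kit, Dmrt2 and Adgrf5 were at 0.12, 0.06 and 0.04 in the control comparison. Of the 6 further genes of both types 2 were lower in FVB control than in control kidneys, against 3.72% of all genes. They were the pump subunits Atp6v0d2 at -0.32 ± 0.05 and Atp6v1c2 at -0.33 ± 0.07 (limma adjusted p = 0.00143 and 0.0144). Atp6v1c2 lost the threshold without control replicate 3 or FVB control replicate 1 (limma adjusted p up to 0.0612).

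**Figure D4:**
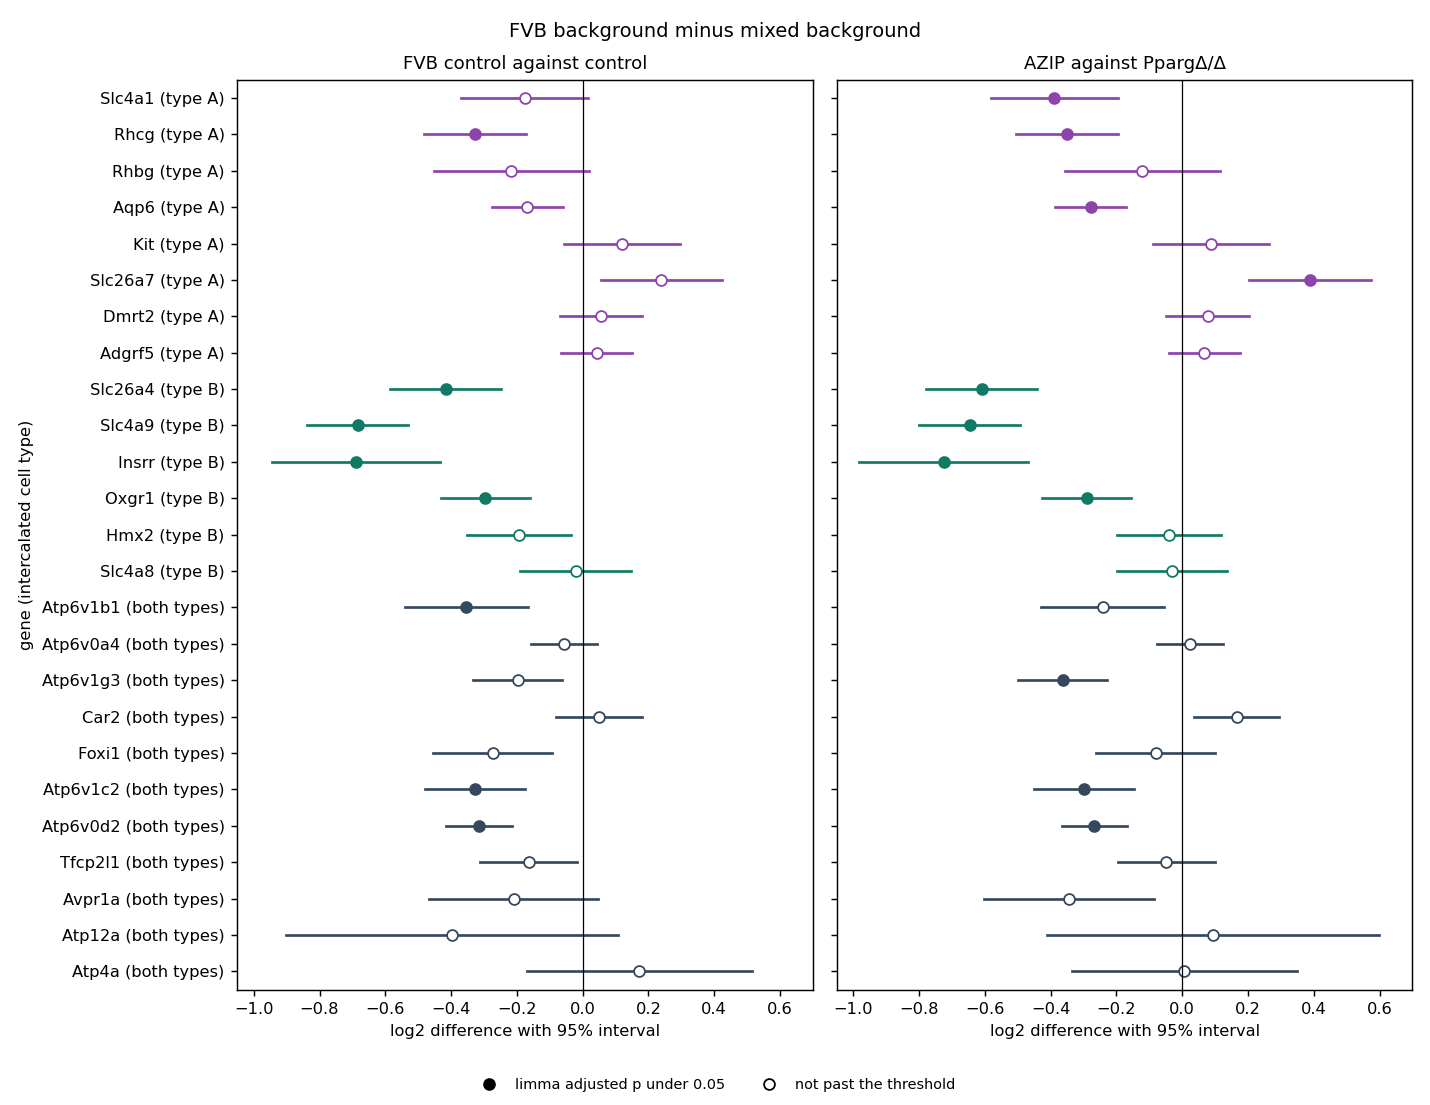
Log2 difference with its 95% interval (horizontal axes) for the members and the further intercalated cell genes, FVB control minus control on the left and AZIP minus PpargΔ/Δ on the right; filled points passed a limma adjusted p under 0.05, and colours mark type A, type B and both types. Slc26a4, Slc4a9, Insrr and Oxgr1 of type B are filled and left of 0 in both panels, as are Rhcg of type A and Atp6v0d2 and Atp6v1c2 of both types.

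Of the 15 further genes 1 was called in PpargΔ/Δ against control kidneys, against 5.29% of all genes. In AZIP against FVB control kidneys 0 were called, against 2.43% of all genes. Avpr1a, the V1a vasopressin receptor that intercalated cells carry, read 8.82, 9.02 and 9.12 in PpargΔ/Δ kidneys, against 8.4, 8.61 and 8.4 in control kidneys, a rise of 0.52 ± 0.12 (1.44-fold, limma adjusted p = 0.0284). In AZIP kidneys it read 8.53, 8.51 and 8.89, against 8.4, 8.08 and 8.29 in FVB control kidneys, a difference of 0.39 ± 0.12 (limma adjusted p = 0.115). Neither pair of groups overlapped, and the difference between the effects was 0.13 ± 0.17 (limma adjusted p = 0.948). The PpargΔ/Δ call was lost without PpargΔ/Δ replicate 2 or 3 or control replicate 1 or 3 (limma adjusted p up to 0.103). Which cells of the kidney gave the Avpr1a reading was not tested.

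Pump subunits other than the intercalated forms were set beside them. Of 17 measured 3 were called higher and 1 lower in FVB control against control kidneys, against 3.5% and 3.72% of all genes. The median was 0.04. The higher ones were Atp6v1g1 (0.40 ± 0.06), Atp6v0e2 (0.37 ± 0.06) and Atp6v0a2 (0.29 ± 0.05), and the lower one was Tcirg1, the a3 subunit (-0.26 ± 0.07), with limma adjusted p of 0.00232, 0.0047, 0.00453 and 0.0449. Tcirg1 lost the threshold in 5 of 6 cases with 1 array left out. In PpargΔ/Δ against control and AZIP against FVB control kidneys 0 of 17 passed by limma, where 5.29% and 2.43% of all genes did. In each 2 of 17 had an unadjusted p under 0.05, against 20.4% and 16.4% of all genes.

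Principal cells share the collecting duct with intercalated cells, and their markers were counted for comparison. Of 11 markers 4 were higher in PpargΔ/Δ than in control kidneys, against 2.67% of all genes, where 0 of 10 intercalated members were: the water channels Aqp2 (0.48 ± 0.10), Aqp3 (0.42 ± 0.09) and Aqp4 (0.61 ± 0.16) and the sodium channel subunit Scnn1g (0.23 ± 0.06), with limma adjusted p of 0.022, 0.0285, 0.048 and 0.0499. Each of the 4 calls was lost with at least 4 of the 6 arrays left out in turn, and whether principal and intercalated genes differ was not tested. The summed linear level of the 11 markers was 12761 to 13516 in PpargΔ/Δ and 11063 to 12100 in control kidneys. In AZIP against FVB control kidneys 0 of 11 were called by limma, where 2.43% of all genes were. There 9 had estimates above 0, and 3 had an unadjusted p under 0.05, against 16.4% of all genes. Aqp2 was at 0.25 ± 0.10, Aqp3 at 0.065 ± 0.09, Aqp4 at 0.38 ± 0.16 and Scnn1g at 0.17 ± 0.06 (limma adjusted p = 0.25, 0.81, 0.253 and 0.161). The difference between the effects was called for 0 of the 11 markers. Some markers of other cells also differed in PpargΔ/Δ against control kidneys, where 5.29% of all genes were called. Slc5a1, 1 of 10 proximal tubule markers, was lower (-0.38 ± 0.09, limma adjusted p = 0.0285). Egf, 1 of 10 thick limb and distal tubule markers, was lower too (-0.26 ± 0.06, limma adjusted p = 0.0321). Of these 10 thick limb and distal tubule markers 6 had estimates above 0, and the median was 0.039. The podocyte gene Wt1 and the urothelial gene Krt5 were higher (0.29 ± 0.06 and 1.80 ± 0.14), and the urothelial gene Upk1b was lower (-0.91 ± 0.15), with limma adjusted p of 0.0169, 0.00018 and 0.0083. The Slc5a1 and Egf calls were each lost in 5 of 6 cases with 1 array left out, and that of Wt1 without control replicate 1 or 2 (limma adjusted p up to 0.104). In AZIP against FVB control kidneys Wt1 was called higher as well (0.28 ± 0.06, limma adjusted p = 0.0308), a call lost in 5 of 6 cases. Slc5a1, Egf, Krt5 and Upk1b were not called there. For Slc5a1, Egf and Upk1b the difference between the effects did not pass (-0.41 ± 0.12, -0.13 ± 0.08 and -1.10 ± 0.22, limma adjusted p = 0.668, 0.895 and 0.332). The difference between the effects was 0.01 ± 0.08 for Wt1 and 1.63 ± 0.20 for Krt5 (limma adjusted p = 0.993 and 0.0215). That of Krt5 lost the threshold in 6 of 12 cases with 1 array left out. In FVB control against control kidneys 1 of 11 principal cell markers, the sodium pump regulator Fxyd4, was lower (-0.47 ± 0.09, limma adjusted p = 0.00764), against 3.72% of all genes. The median was -0.195. The summed linear level of the markers was 10413 to 10607 in FVB control kidneys, below the 11063 to 12100 of control kidneys, and its part in the lower intercalated genes was not tested. Thick limb and distal tubule markers had a median of -0.01 and proximal tubule markers one of 0.11 in FVB control against control kidneys. In each 0 of 10 were called by limma, where 7.22% of all genes were. An unadjusted p under 0.05 was reached by 4 and 5 of 10, against 19.7% of all genes. In AZIP against PpargΔ/Δ kidneys 3 of 11 principal cell markers were lower, Aqp2, Scnn1g and Fxyd4, against 4.33% of all genes. The summed linear level of the 11 was 10061 to 12389 in AZIP and 12761 to 13516 in PpargΔ/Δ kidneys. The Scnn1g call was lost in 5 of 6 cases with 1 array left out (limma adjusted p up to 0.0913).

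Other genes of the carbonic anhydrase family and proximal acid-base and ammonia genes were counted as well. Of the 15 family genes 1, the membrane form Car15, was called in PpargΔ/Δ against control kidneys, against 5.29% of all genes. It was higher (0.28 ± 0.06, limma adjusted p = 0.027). Also there, 6 of 15 had an unadjusted p under 0.05, against 20.4% of all genes, and 8 had no overlap, against 26.1%. In AZIP against FVB control kidneys 1 of 15, the mitochondrial Car5a, was called, against 2.43% of all genes. It was lower (-0.64 ± 0.13, limma adjusted p = 0.0327). There 4 of 15 had an unadjusted p under 0.05, against 16.4%, and 3 had no overlap, against 22.5%. Of the 10 proximal tubule markers 10 had estimates below 0 in PpargΔ/Δ against control kidneys (median -0.157, 6 at an unadjusted p under 0.05, 1 called) and 9 of 10 in AZIP against FVB control kidneys (median -0.134, 6 at an unadjusted p under 0.05, 0 called by limma). Their summed linear level was 49138 to 51392 in PpargΔ/Δ and 54415 to 58272 in control kidneys, and 52070 to 56159 in AZIP and 58451 to 60079 in FVB control kidneys. Its part in the proximal genes described next was not tested. Slc38a3, the glutamine transporter that feeds ammonia production in the proximal tubule, averaged 9.93 ± 0.17 in PpargΔ/Δ and 10.52 ± 0.09 in control kidneys (SD, n = 3 each), a difference of -0.58 ± 0.15 just outside the threshold (limma adjusted p = 0.0503). In AZIP kidneys it was at 0.15 ± 0.15, and the difference between the effects, -0.74 ± 0.22, did not pass (limma adjusted p = 0.666). Pck1, the gluconeogenic enzyme that acid induces in the proximal tubule, was at -0.01 ± 0.05 in PpargΔ/Δ and 0.05 ± 0.05 in AZIP kidneys against their controls. Of the 9 measured proximal acid-base and ammonia genes 1, the phosphate transporter Slc34a3, was lower in AZIP than in FVB control kidneys (-0.53 ± 0.12, limma adjusted p = 0.045), against 1.13% of all genes. Against control, 0 of the 9 were called in PpargΔ/Δ kidneys, where 5.29% of all genes were. In PpargΔ/Δ against control kidneys Car5a was at -0.41 ± 0.13 and Slc34a3 at -0.37 ± 0.12 (limma adjusted p = 0.104 and 0.0991). For both genes all PpargΔ/Δ arrays lay below all control arrays. The differences between the effects were 0.23 ± 0.19 for Car5a and 0.15 ± 0.17 for Slc34a3 (limma adjusted p = 0.925 and 0.941). The Car15 and Car5a calls were each lost in 4 of 6 cases with 1 array left out, and that of Slc34a3 in 5 of 6. In FVB control against control kidneys Car8 (-0.23 ± 0.06), 1 of the 15 carbonic anhydrase family genes, and Slc1a5 (-0.48 ± 0.07), 1 of the 9 proximal genes, were lower (limma adjusted p = 0.0421 and 0.00204), against 3.72% of all genes. Both were lower in AZIP than in PpargΔ/Δ kidneys, as was Car9 (-1.18 ± 0.15, limma adjusted p = 0.000608), against 4.33% of all genes. Slc38a3 was higher there (0.98 ± 0.15, limma adjusted p = 0.00246), against 4.29%. Car9 averaged 5.79 in AZIP, 6.04 in FVB control, 6.97 in PpargΔ/Δ and 6.42 in control kidneys, under the lowest array median of 7.17. In PpargΔ/Δ against control kidneys Car9 was at 0.55 ± 0.15 with no overlap, and in FVB control against control kidneys at -0.38 ± 0.15 (limma adjusted p = 0.056 and 0.175). The Car8 calls were lost in 6 of 6 and 5 of 6 cases, and that of Slc1a5 between mutants in 3 of 6.

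How far the members varied together was described over the 12 arrays, which share 4 groups and 2 backgrounds. As measured, Rhcg followed the mean of the other 9 members most closely (r = 0.941), then Atp6v1b1 (0.923) and Slc26a4 (0.905), while Atp6v0a4 was at 0.011 and Car2 at -0.479. With group means removed Rhbg (0.850), Atp6v1b1 (0.845) and Rhcg (0.809) stayed close to the others, while Slc4a9 was at -0.166 and Atp6v0a4 at -0.587. The largest correlation between any pair of members within groups was that of Slc26a4 and Car2 (r = 0.931), a pair at -0.449 as measured. Outside the members, the genes with the highest r to the members' mean were Trim30d (0.971), Klhdc9 (0.969), Abca13 (0.964), the principal cell gene Fxyd4 (0.963) and Pgam2 (0.961) as measured. With group means removed they were Noxo1 (0.964), Tmem171 (0.957), Paqr5 (0.947), Dach1 (0.944) and Mif (0.938), and the lists had no gene in common.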

How the data were processed

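The authors deposited log2 levels, 1 per probe set. Per the submitters' processing notes, these are RMA values from the Expression Console software of Affymetrix; RMA corrects background, normalizes by quantiles and summarizes probes. The sources used here give no versions, settings or annotation build. Replicates are 3 pools per group, and nothing says how pools were formed, so p-values measure the spread between these pools. The number of arrays limits the precision.

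Of 35556 probe sets 21789 had 1 platform symbol, 1621 several and 12146 none. Symbols were updated by Entrez number for 21698 and kept for 91. The probe set with the highest mean was used for 999 genes with several, leaving 19938 genes. Each member had 1 probe set.

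One limma model (version 3.58.1, R version 4.3.3) held the means of the 4 groups over 12 arrays (8 residual and 3.71 prior degrees of freedom), with Benjamini-Hochberg adjustment over all genes and a threshold of 0.05. The median SE was 0.0698. Lists are described by counts and medians, with no set test. The members and lists were chosen with earlier results of these data known, and AZIP against PpargΔ/Δ was added after seeing the data. Named genes were the members, list genes past the threshold (in part), the smallest p of lists without one, and the 5 most alike genes.

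Same-numbered FVB control and control arrays had r = 0.247, 0.181 and 0.135 across genes, and their different-numbered pairs -0.157 to 0.005. Of the same-numbered pairs, 1 of 3 PpargΔ/Δ and control pairs (0.184, 0.179 and 0.009) and 3 of 3 AZIP and FVB control pairs (-0.036, -0.103 and -0.01) were under 0.1. The same-numbered AZIP and PpargΔ/Δ pairs were at 0.006, -0.084 and 0.228, and the different-numbered ones at -0.227 to 0.245. The main model has no block. Alternatives were a second quantile normalization, equal medians, filters at percentiles 25 and 50, probe sets averaged per gene, every probe set tested singly, a model of the compared groups alone, variance trend, robust variance, array weights, the block, each array left out and a threshold of 0.10. On simulated data for PpargΔ/Δ against control with 19938 genes, 48% of 50 genes changed by a log2 value of 0.3 were found. The share was 76% for changes of 0.5, 98% for 1 and 100% for 1.5, and 13 unchanged genes were called.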

Additional observations from a re-analysis of the deposited data

How the results depend on the processing

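The number of members called in PpargΔ/Δ against control kidneys was 0 in the model reported and 1, Atp6v1g3 in each case, with genes under percentile 25 or under percentile 50 left out, with a variance trend and at an adjusted p under 0.10. Leaving out 1 array gave 0 to 1. In FVB control against control kidneys it was 4, and 2 to 5 with 1 array left out, with 2 without control replicate 1 or 2 or FVB control replicate 1 or 2. It was 3 with all probe sets, and 6, with Foxi1 and Atp6v1g3 added, with genes under percentile 50 left out, with a variance trend, with array weights and at an adjusted p under 0.10. In AZIP against PpargΔ/Δ kidneys it was 5, 3 with only those groups in the model and 4 to 5 with 1 array left out. AZIP against FVB control and the difference of effects stayed at 0 members in every alternative run. With the replicate number as a block the 4 counts were 0, 0, 0 and 4, and the block changed no call of a member. Whether arrays with the same number belong together was not tested. Of 950 values of single members under an alternative 15 lost and 15 gained the threshold, and 0 called values changed sign.

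The count over all genes moved more. For PpargΔ/Δ it was 1055, 607 with only those groups, 1938 at 0.10 and 330 to 1084 with 1 array left out. For AZIP it was 485, with 836 above percentile 50, 785 with a variance trend, 176 over all probe sets, 162 with only those groups, 1035 at 0.10 and 62 to 569 with 1 array left out. For the difference of effects it was 4, and 0 to 9 over the alternatives run. For FVB control it was 1439, with 2219 under array weights and 852 to 947 with 1 array left out. For AZIP against PpargΔ/Δ it was 1720, 773 with only those groups, 2762 at 0.10 and 1119 to 1581 with 1 array left out. The cause was not tested. The type A minus type B scores moved by less than 1 SD in every alternative run.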
